A study of Mus musculus with 12 samples.

Results

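The comparison is between 3T3-L1 cells induced to form fat cells and untreated cells of the same line, and addresses how the transcriptome differed between them on day 6. It takes 6 of the 12 libraries of the series, chosen by their sample labels, 3 labelled DMI and 3 labelled untreated, all wild type and all collected on day 6. 3T3-L1 is a mouse embryonic fibroblast line whose cells store fat once induced. Induction began 2 days after confluence, with 0.5 mM IBMX (3-isobutyl-1-methylxanthine), 1 uM dexamethasone and 10 ug/ml insulin until day 2, followed by insulin alone for 2 days, in medium with 10% fetal bovine serum. The labels carry this same treatment text on every sample, and only the title and the treatment entry set the untreated samples apart. The other 6 libraries had luteolin or quercetin added to DMI. They entered the low-count filter, the scaling and the estimate of the spread, but not the comparison itself.

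IBMX blocks phosphodiesterases and so raises cyclic AMP, dexamethasone activates the glucocorticoid receptor, and insulin at this concentration acts on the insulin and IGF1 receptors. These signals induce the early factors C/EBP beta and delta, which in turn switch on Pparg and Cebpa. That pair then drives the genes for lipid storage, lipid mobilisation and hormone secretion while preadipocyte genes such as Dlk1 are repressed.

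Library totals in the 6 libraries ran from 15186820 to 17262585 counts. Levels are given as CPM, a gene's counts relative to the scaled library total, and comparisons between genes use TPM, which also divides by gene length. Of 14855 genes tested by edgeR's quasi-likelihood test, 27.1% were called at a Benjamini-Hochberg adjusted p below 0.05, with 14.7% called higher and 12.4% called lower with DMI. The median log2 fold change of all genes tested was -0.04. The DMI libraries were less alike than the untreated ones, with a median SD of log2(CPM + 1) of 0.188 against 0.0762 per gene. DMI library 3 stood apart, as it lay closest to the untreated libraries: among genes called higher at 5 CPM or more it was the lowest of its group for 1723 of 1785, and among genes called lower it was the highest for 1506 of 1642. Genes called higher lay a median of 1.14 and 1.25 above the untreated mean on the log2 scale in DMI libraries 1 and 2, and 0.50 above it in library 3. Untreated library 3 was the highest of its group for Adipoq, Fabp4, Plin1, Cidec and Gpd1. The count of calls rose from 4024 to 5549 without DMI library 3 and fell to 1936 and 1865 without DMI library 1 or 2. It was 2407, 2441 and 2456 without untreated library 1, 2 or 3. In bulk RNA, fewer cells of a type and less RNA per cell cannot be told apart, so the levels below do not separate the share of cells that differentiated from the level in each.

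Of the 4 cell markers of the comparison, Adipoq, Fabp4 and Plin1 were higher and Dlk1 was lower with DMI. Adipoq, the adiponectin gene (ENSMUSG00000022878, chromosome 16, 23146536 to 23158028, GRCm38), stood at 0.373, 0.179 and 2.05 CPM in untreated libraries 1 to 3 and at 1553, 1880 and 472 CPM in DMI libraries 1 to 3. Fabp4, the fatty acid carrier gene (chromosome 3, 10204088 to 10208576), stood at 0.933, 2.80 and 7.25 CPM untreated and at 2958, 3896 and 840 CPM with DMI. Plin1, the coat gene of large lipid droplets, stood at 0.0622, 0.179 and 1.81 CPM untreated and at 1034, 1194 and 298 CPM with DMI. In all 3 genes the groups lay orders of magnitude apart, the untreated library 3 was the highest of its group and DMI library 3 the lowest. Dlk1, which marks preadipocytes and blocks their differentiation, stood at 6574, 6903 and 6848 CPM untreated and at 1739, 1562 and 3120 CPM with DMI. It fell by 1.66 on the log2 scale (SE 0.31, adjusted p = 0.00278 by edgeR) and remained among the abundant transcripts, at rank 60 by TPM with DMI against rank 19 untreated.

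**Figure D1:**
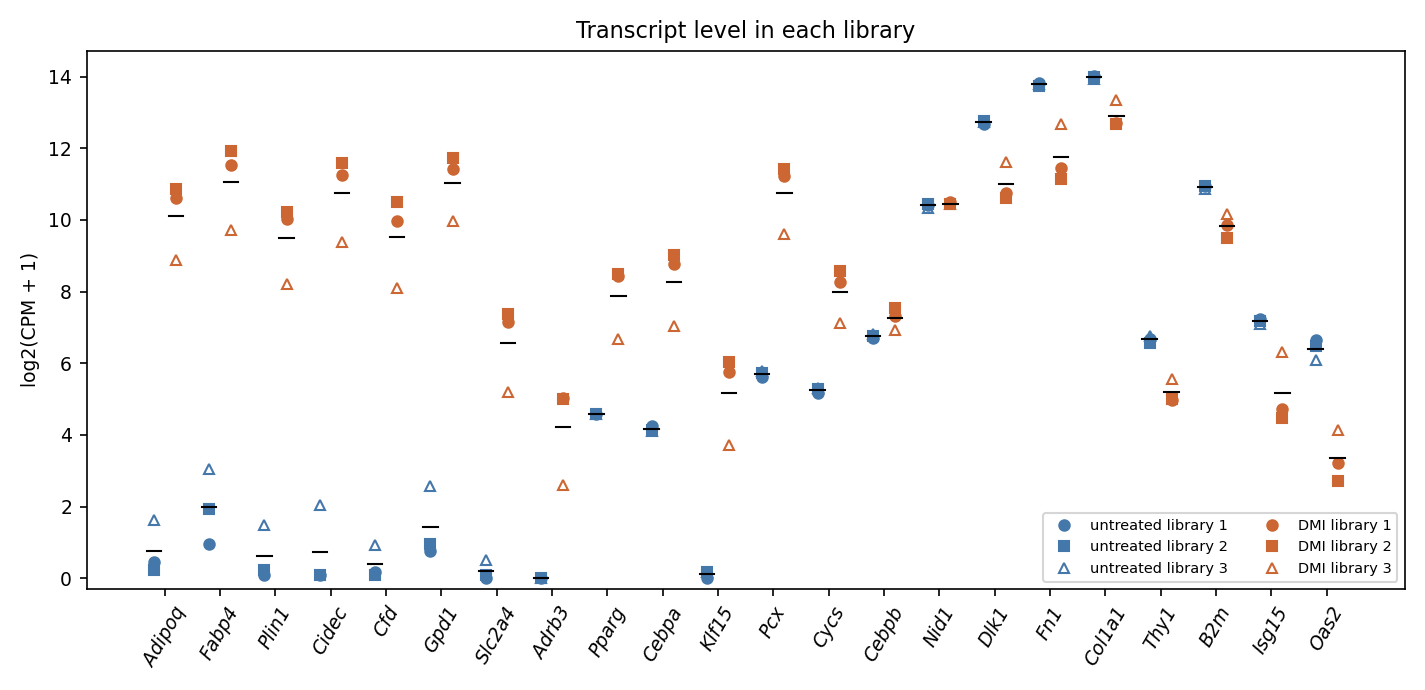
Level of 22 genes in each of the 6 libraries, as log2(CPM + 1) on the vertical axis; symbols mark libraries 1 to 3 of the untreated (blue) and DMI (orange) groups and black bars their means. Adipocyte genes on the left lie near 0 untreated, DMI library 3 (open orange triangle) lies nearest to the untreated level in most genes, and Cebpb and Nid1 were not called.

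Rises were far larger than falls. Of the 2187 genes called higher, 610 rose at least 4-fold, 298 at least 16-fold and 164 at least 64-fold. Of the 1837 called lower, 612 fell at least 2-fold, 111 at least 4-fold, 15 at least 8-fold and 2 at least 16-fold. These sizes are fold changes of the fit. For genes without an untreated count they can exceed the lower bounds given below. Irs3, with 195-fold in the fit and a bound of at least 24.0-fold, thus counts among the rises of at least 64-fold. At the low end, 163 genes called higher had at most 3 counts over the untreated group, whereas 4 genes called lower had at most 3 counts over the DMI group. These 4 were Meox1, Schip1, Car6 and Gm44144, of which the homeobox gene Meox1 went from 107 counts to 2 (ratio 50.6, 95% counting interval 13.7 to 423). Gm44144 lost its call without any 1 of DMI libraries 1 and 2 and the untreated libraries (adjusted p from 0.0816 to 0.156 by edgeR).

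**Figure D2:**
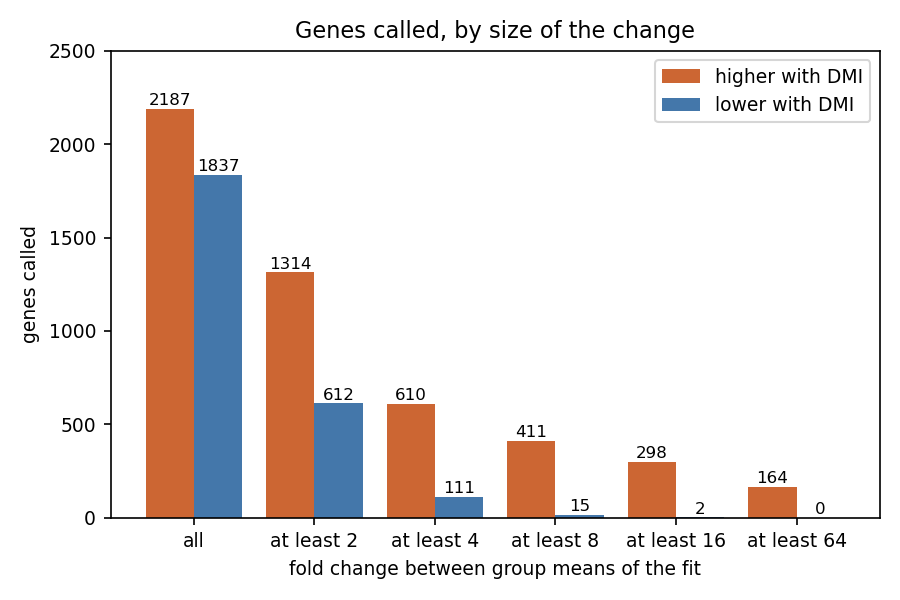
Number of genes called higher (orange) and lower (blue) with DMI, in total and at or beyond each fold change on the horizontal axis. Fold changes are those of the fit, also for genes without an untreated count. At 2-fold the counts are 1314 higher and 612 lower, and at 16-fold they are 298 and 2.

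Among the transcription factors of adipogenesis, Pparg and Cebpa rose and Cebpb did not pass the test. Pparg, the receptor that directs fat storage genes, stood between 22.8 and 23.0 CPM in all untreated libraries and at 346, 357 and 101 CPM with DMI (log2 fold change 3.55, SE 0.47, adjusted p = 0.000441). Cebpa, its partner, rose from 17.8, 16.7 and 16.3 CPM to 435, 516 and 132 CPM (4.41, SE 0.56). The groups did not overlap in either gene. Cebpb stood at 103, 108 and 112 CPM untreated and at 158, 184 and 121 CPM with DMI (0.52, SE 0.26, adjusted p = 0.163). Of 29 tested factors of the adipogenic list 12 rose and 6 fell (median 0.45). Mlxipl, which encodes the glucose-sensing lipogenic factor ChREBP, and Rxrg, a partner receptor of Pparg, had no untreated count and were at least 91.6-fold and 89.1-fold higher. Nr1h3, the sterol-sensing receptor LXR alpha, rose 24.5-fold and Ppargc1b, a coactivator of mitochondrial genes, 10.5-fold, while its relative Ppargc1a fell from 50.4, 50.6 and 40.4 to 35.6, 26.2 and 24.8 CPM (adjusted p = 0.0211). Ppargc1a lost its call without DMI library 2 (adjusted p = 0.0934 by edgeR) and without untreated library 1 or 2 (0.0714 and 0.0715). Gata2 and Gata3, which hold cells in the preadipocyte state, fell 2.44-fold and 2.51-fold.

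Of 13 tested Krüppel-like factors 3 rose and 2 fell, with 1 fall without DMI library 1 or 2 and 5 without DMI library 3. Klf15, a factor induced by glucocorticoids, stood at 0, 0.119 and 0.121 CPM untreated and at 53.04, 64.9 and 12.3 CPM with DMI (adjusted p = 0.000191). Klf5 and Klf9, both positive regulators of Pparg, rose 3.31-fold and 2.19-fold, and Klf4, an early factor, fell 1.72-fold. Over all 963 tested genes that the deposited table assigns to a transcription factor family, 69 were called higher and 152 lower, with a median log2 fold change of -0.17. Over all genes tested the shares were 14.7% higher and 12.4% lower, so rises were a smaller share of these factors and falls a larger one. The falls of these factors numbered 50 without DMI library 1 or 2, 76, 70 and 59 without untreated library 1, 2 or 3, and the rises 42 without DMI library 2. With a 2-fold minimum 43 were called higher and 36 lower, against 1314 and 612 over all genes tested. The larger number of falls among these factors holds only without that minimum.

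In lipid mobilisation, the lipolysis list had most members higher, as 11 of 15 tested genes rose and none fell (median 4.99, against -0.04 for all genes). Pnpla2, the lipase of the first step, stood at 38.4, 40.6 and 41.4 CPM untreated and at 1594, 1804 and 427 CPM with DMI. Lipe, the hormone-sensitive lipase, rose 58.2-fold and Mgll, the monoglyceride lipase, 96.5-fold, so each of the sequential lipases rose. G0s2, an inhibitor of the first lipase, rose 512-fold, from at most 0.786 CPM in any untreated library to 250, 290 and 62.4 CPM. Aqp7, the channel through which glycerol leaves the cell, rose 315-fold, and the related lipase gene Pnpla3 had 2 untreated counts against 1461 (ratio 772, 95% counting interval 213 to 6382). Lipa, the acid lipase of lysosomes, stood at -0.39 (SE 0.18, adjusted p = 0.124).

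In triglyceride assembly 13 of 18 tested genes rose and 2 fell (median 1.58). Gpd1, which makes the glycerol backbone, went from 0.684, 0.954 and 4.96 CPM to 2727, 3387 and 1009 CPM, and by TPM from rank 10682 to rank 26. At each later step at least 1 enzyme rose: the acyltransferase genes Gpat3 and Agpat2 by 21.5-fold and 17.9-fold, the phosphatase gene Lpin1 by 21.8-fold, and the final acyltransferases Dgat1 and Dgat2 by 9.58-fold and 174-fold. Family members moved apart at several steps. Pck1, the cytosolic PEP carboxykinase of glyceroneogenesis, had no untreated count and 61.7, 59.6 and 15.8 CPM with DMI, at least 742-fold higher, while Pck2, its mitochondrial counterpart, fell from 186, 182 and 206 to 109, 120 and 124 CPM (adjusted p = 0.000757). Agpat4 fell 1.65-fold beside the rise of Agpat2.

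In fatty acid synthesis 11 of 20 tested genes rose and 2 fell (median 0.83), with 1 fall without DMI library 1 or 2 or untreated library 1 or 3. Scd1, the desaturase that makes oleate, went from rank 1435 to rank 8 by TPM, and its level was 125, 120 and 212 CPM untreated against 12870, 13630 and 4599 CPM with DMI. The Scd genes are close relatives, and reads shared between them may be split or lost. Elovl4, which extends very long chains, fell 2.99-fold and Fads1, a desaturase of polyunsaturated chains, 1.40-fold. Fads1 lost its call without DMI library 1 or 2 (adjusted p = 0.107 and 0.102 by edgeR), without untreated library 1 or 3 (0.0513 and 0.169) and without a low-count filter (0.0812). Acly, which feeds the pathway with acetyl-CoA, stood at 0.20 (SE 0.14, adjusted p = 0.297). The fatty acid uptake list had 7 rises and no fall in 12 (1 fall without DMI library 3), with Cd36, the main fatty acid transporter, at 0.249, 0.656 and 3.14 CPM untreated and at 1830, 1754 and 576 CPM with DMI, and Acsl1, the acyl-CoA synthetase of adipocytes, up 185-fold. Of 15 droplet genes 8 rose and 1 fell, with no fall without any 1 library other than DMI library 3. The rises were led by Cidec, which fuses droplets (0.0622, 0.0597 and 3.08 CPM against 2459, 3108 and 672 CPM), whereas the widely expressed coat gene Plin3 stood at -0.15 (SE 0.21, adjusted p = 0.632).

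The promoter of Plin1 is shown because it held a match to the core of the C/EBP motif, TTGCNNAA, in the gene whose protein coats the droplets. The sequence is RefSeq's on GRCm38.p6, minus strand, chr7:79732907-79733026, 5′ to 3′, with the match in capitals. It covers bases 250 to 131 before the start that its promoter window uses. The outermost start that RefSeq annotates for the gene lies nearer, with 2 bases between it and the printed stretch.
Plin1: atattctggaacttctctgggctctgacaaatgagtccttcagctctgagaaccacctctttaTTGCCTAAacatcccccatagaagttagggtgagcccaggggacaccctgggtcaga
On either strand of the 250 bases before the start, this motif was found in 9.55% of the 27025 genes of RefSeq's promoter table. That table holds a window for 10330 of the 14855 genes tested, for 1625 of those called higher and for 201 of the 298 that rose at least 16-fold, and the motif was found in 7.24%, 8.74% and 13.4% of these windows. The TATA box letters TATAAA were found in 6.42%, 6.83% and 12.4% of the same windows. A larger share among the strongest rises was therefore not particular to the C/EBP motif. A direct repeat of AGGNCA with 1 base between, the form of motif that Pparg with its partner binds, was found in 3 of those 201 windows and in 20 of the 10330. By list, the C/EBP motif was found in 0 of 11 lipolysis, 2 of 14 droplet, 4 of 17 adipokine and 3 of 24 hormone receptor windows. A match describes letters in its window only.

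Of 16 tested adipokine genes, which encode secreted hormones of fat, 12 rose and 1 fell (median 3.97). The falls numbered 0 without any 1 library other than DMI library 3, and 3 without that one. Cfd, the complement factor adipsin, stood at 0.124, 0.0597 and 0.906 CPM untreated and at 1009, 1439 and 276 CPM with DMI. Retn, the resistin gene, went from at most 0.242 CPM to 314, 389 and 64.95 CPM. The leptin gene Lep was detected only with DMI and at a low level (2.52, 3.91 and 0.677 CPM, at least 38.1-fold). The angiotensinogen gene Agt and the chemerin gene Rarres2 rose 28.3-fold and 20.6-fold.

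Of 26 tested receptors for hormones and metabolites 16 rose and 1 fell (median 1.59). Adrb3, the beta-3 adrenergic receptor that triggers lipolysis in rodent fat, was at 0 untreated and at 32.0, 31.0 and 5.05 CPM with DMI, at least 367-fold higher. Ffar4, a long-chain fatty acid receptor, was at least 159-fold higher. Hcar1 and Hcar2, receptors for lactate and for ketone bodies that restrain lipolysis, had 3 and 1 untreated counts (ratios 871 and 1175, 95% counting intervals 298 to 4225 and 211 to 46470). The ACTH receptor gene Mc2r and the gene of its accessory protein, Mrap, rose together, with ratios of 602 (95% counting interval 108 to 23800) and 3069 (849 to 25350). Klb, the co-receptor of FGF21, rose 306-fold, whereas the receptor tyrosine kinase gene Fgfr1 with which it pairs stood at -0.11 (SE 0.12, adjusted p = 0.557). The insulin receptor gene Insr rose 1.93-fold, and Slc2a4, the insulin-responsive glucose transporter GLUT4, went from at most 0.423 CPM to 142, 164 and 36.0 CPM. Pde3b, the phosphodiesterase through which insulin lowers cyclic AMP, rose 28.3-fold, and Irs3, an insulin receptor substrate of rodent adipocytes, was at 0 untreated and at least 24.0-fold higher. Adora2b, an adenosine receptor, was the 1 member that fell (2.50-fold), and it lost its call without DMI library 1 or 2 or untreated library 2 or 3 (adjusted p from 0.066 to 0.0919 by edgeR) and in a fit of only the 6 libraries (0.0684). The list had no fall without any 1 of those 4 libraries, and 3 without DMI library 3.

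Most tested genes of fatty acid oxidation and of the citric acid cycle rose. Of 27 tested fatty acid oxidation genes 25 rose and none fell (median 1.79), and of 34 genes of pyruvate entry and the citric acid cycle 30 rose and none fell (median 1.52). Pcx, pyruvate carboxylase, which refills the cycle for citrate export, stood at 48.1, 51.8 and 54.5 CPM untreated and at 2398, 2744 and 779 CPM with DMI (38.3-fold), beside 5.16-fold for Idh3a and 4.73-fold for Pdhb. Slc25a1 and Slc25a10, carriers of citrate and dicarboxylates, rose 4.13-fold and 14.4-fold. Cpt1a, the gate of mitochondrial fatty acid entry in many tissues, stood at -0.20 (SE 0.13, adjusted p = 0.264).

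In branched-chain amino acid catabolism 21 of 24 tested genes rose and 1 fell (median 1.39), and the exception was the cytosolic enzyme of the step at which the mitochondrial enzyme rose. Bcat2, the mitochondrial aminotransferase, went from 30.2, 32.3 and 32.1 to 413, 507 and 124 CPM (log2 fold change 3.46, SE 0.54, adjusted p = 0.00104). Bcat1, its cytosolic counterpart, went from 71.1, 67.6 and 94.0 to 9.63, 9.45 and 36.1 CPM (-2.07, SE 0.49, adjusted p = 0.00964). The groups did not overlap in either gene. The next steps rose too, with Dbt of the branched-chain dehydrogenase at 6.86-fold, Hibch at 7.26-fold and Aldh6a1 at 10.7-fold.

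Of 81 tested nuclear genes of the respiratory chain 70 rose and 1 fell (median 1.24), and 42 rose without DMI library 2. Forms restricted to some tissues moved both ways. Cox8b and Cox7a1, forms of muscle and brown fat, both rose, Cox8b by 79.4-fold and Cox7a1 from 0.249, 0.119 and 0.121 to 2.77, 3.63 and 1.72 CPM, while Cox6a2, the heart and muscle form of another subunit, fell from 5.41, 4.65 and 4.41 to 0.692, 0.548 and 0.862 CPM. Ucp1, the uncoupling protein of brown fat, had no count in any of the 6 libraries. Of 12 tested genes encoded in mitochondrial DNA 8 rose and none fell, with 4 without DMI library 1 and 5 without DMI library 2 or without any 1 of the untreated libraries. Their summed share of TPM was 5.08%, 5.14% and 5.10% untreated and 12.3%, 10.6% and 7.39% with DMI. The low counts of mt-Co2, mt-Co3 and mt-Atp6 beside the high ones of mt-Co1 and mt-Cytb are uncertain, since nuclear copies of these genes share their sequence. The call of mt-Atp6 was lost without any 1 library other than DMI library 3 (adjusted p from 0.0506 to 0.0791 by edgeR), and that of mt-Co3, whose groups overlap, without DMI library 1 (0.296) and untreated library 1 or 3 (0.104 and 0.106). The call of mt-Co3 was also lost by limma-voom (adjusted p = 0.0918) and by edgeR in a fit of only the 6 libraries (0.0589), with a replicate block as well (0.101). The genes of the mitochondrial ribosome rose less, 35 of 77 with none falling (median 0.58), and this count was 9, 8, 13 and 15 without DMI library 1, DMI library 2, untreated library 1 or untreated library 2.

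**Figure D3:**
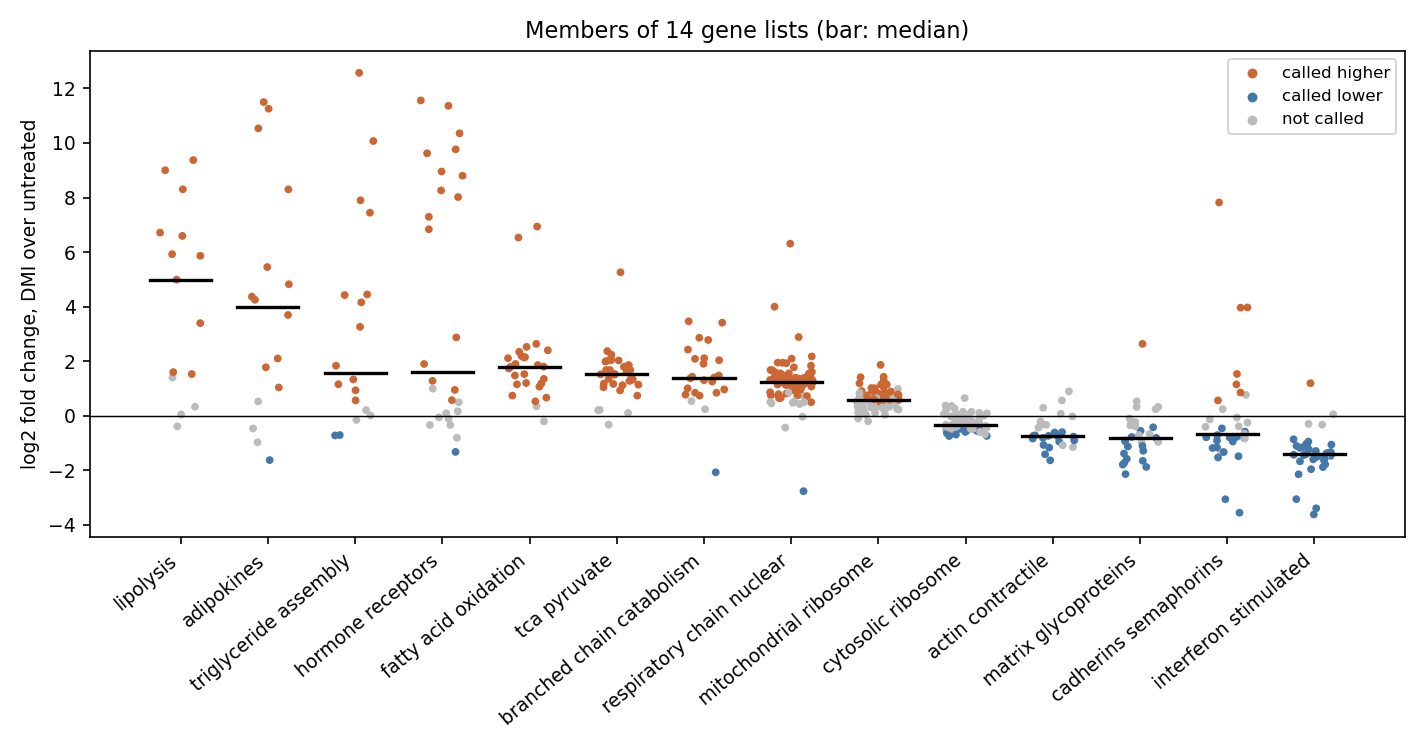
Log2 fold change of DMI over untreated (vertical axis) for each tested member of 14 gene lists; orange points were called higher, blue points lower, grey points neither, and black bars are medians. Lipolysis and adipokine genes spread up to 11.5, the mitochondrial lists have medians from 0.58 to 1.79, and interferon-stimulated genes have a median of -1.39.

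Of 80 tested cytosolic ribosomal protein genes 17 fell and none rose (median -0.33), with no fall at a 2-fold minimum, and their share of TPM was 7.21%, 7.10% and 7.50% untreated against 4.41%, 4.57% and 6.54% with DMI. The falls were small, with Rplp1 at 1453, 1506 and 1522 CPM untreated and at 773, 813 and 1097 CPM with DMI (1.67-fold, adjusted p = 0.0111). Rplp1 lost its call without DMI library 1 or 2 or untreated library 3 (adjusted p from 0.0533 to 0.0621 by edgeR). The count rested on single libraries: it was 0 without DMI library 1, DMI library 2 or untreated library 3, 7 and 4 without untreated library 1 or 2, and 30 without DMI library 3. Ribosomal protein genes have many processed pseudogenes, so part of their reads may be lost. Among the 20 most abundant protein-coding genes of the DMI group by TPM were Scd1, Cidec, Cfd and Adipoq, whose untreated ranks were 1435, 10946, 11292 and 10859.

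**Figure D4:**
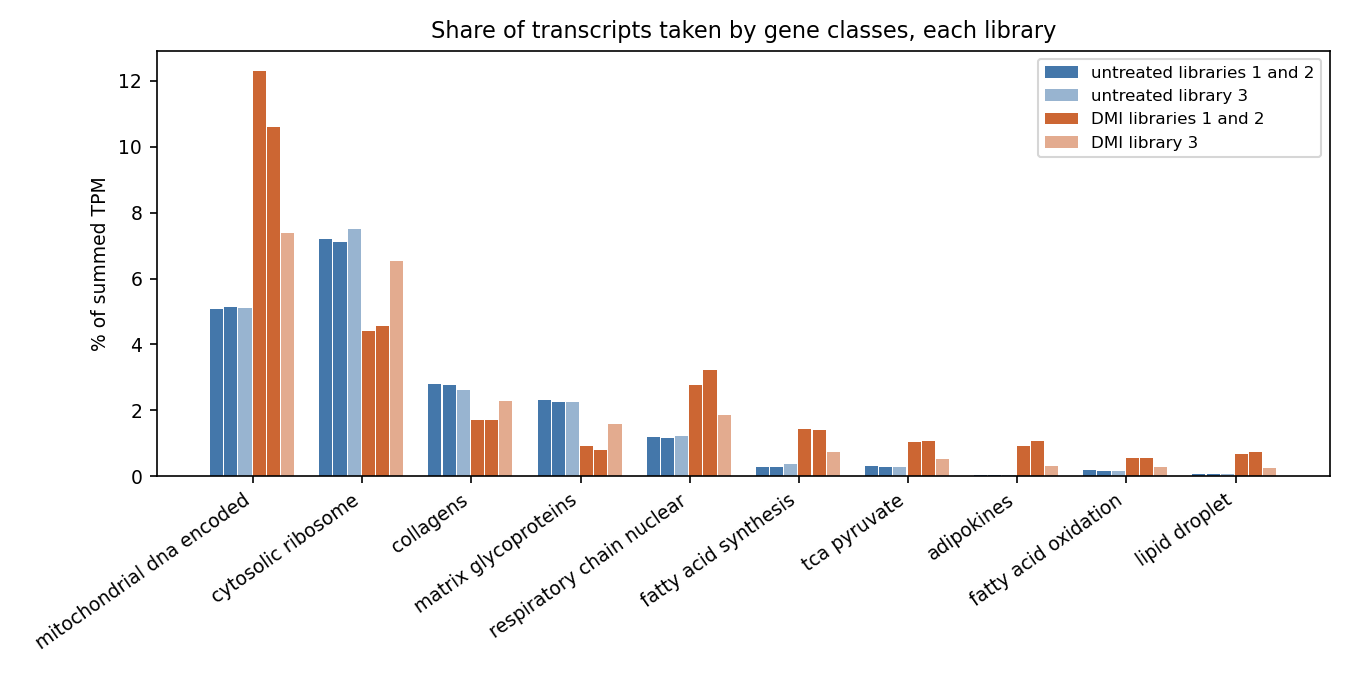
Percentage of summed TPM taken by 10 gene classes in each library, with untreated libraries in blue, DMI libraries in orange and library 3 of each group in a lighter shade. Mitochondrial DNA transcripts rise from about 5.1% to between 7.39% and 12.3%, and DMI library 3 lies between the untreated libraries and the other DMI libraries in every class.

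Interferon-stimulated genes, the antiviral programme downstream of STAT and IRF factors, had the highest share of members called lower among lists of at least 10 tested genes. Of 36 tested 31 fell and 1 rose (median -1.39), and the count of falls was 16 without DMI library 1. Isg15, a ubiquitin-like modifier, stood at 150, 143 and 136 CPM untreated and at 25.4, 21.4 and 77.9 CPM with DMI (log2 fold change -1.78, SE 0.51, adjusted p = 0.0222). Oas2, an oligoadenylate synthetase, stood at 98.9, 88.2 and 67.7 CPM untreated and at 8.24, 5.55 and 16.8 CPM with DMI (-3.06, SE 0.37, adjusted p = 0.000266). The groups did not overlap in either gene, and DMI library 3 was again the highest of its group. B2m, the light chain of MHC class I, fell by 4270 TPM, the third largest loss among protein-coding genes called lower. Its level went from 1973, 1984 and 1863 CPM untreated to 928, 723 and 1146 CPM with DMI. The immunoproteasome genes Psmb8 and Psmb9 fell 2.83-fold and 2.51-fold. The transducers fell as well, Stat2 by 2.35-fold and Irf7 by 2.61-fold. Isg15, Psmb8 and Psmb9 lost their calls without any 1 library other than DMI library 3 (adjusted p from 0.0507 to 0.112 by edgeR), and Irf7 without DMI library 1 (0.0608). Ifi27 was the member that rose (89.4, 100 and 102 CPM untreated against 248, 250 and 169 CPM, adjusted p = 0.000956).

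Interferon-stimulated response elements contain GAAA repeated with 2 bases between. Promoters of 4 genes that fell are shown because each held this repeat on either strand; the sequences are RefSeq's on GRCm38.p6, 5′ to 3′ on the gene's strand, upstream of the annotated start, with the repeats in capitals. They lie at chr4:156200819-156200968 (Isg15, minus strand), chr19:34640739-34640888 (Ifit1, plus strand), chr3:142559894-142560015 (Gbp3, plus strand) and chr2:122147537-122147686 (B2m, plus strand). For Gbp3 the stretch covers bases 150 to 29 before the start that its promoter window uses. It ends at the outermost start that RefSeq annotates for that gene.
Isg15: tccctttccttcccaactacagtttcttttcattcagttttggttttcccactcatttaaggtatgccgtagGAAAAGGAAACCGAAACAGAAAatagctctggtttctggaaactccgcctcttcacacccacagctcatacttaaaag
Ifit1: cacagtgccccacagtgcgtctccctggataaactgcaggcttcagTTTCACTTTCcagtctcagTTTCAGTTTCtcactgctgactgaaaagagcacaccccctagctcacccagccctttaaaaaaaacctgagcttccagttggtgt
Gbp3: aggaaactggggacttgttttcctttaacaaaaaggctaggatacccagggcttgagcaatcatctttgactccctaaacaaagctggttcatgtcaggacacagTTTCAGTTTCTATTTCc
B2m: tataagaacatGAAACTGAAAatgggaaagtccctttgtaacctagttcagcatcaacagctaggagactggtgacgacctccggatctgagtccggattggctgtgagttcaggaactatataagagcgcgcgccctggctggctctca
In Isg15 the repeat came 3 times in overlap, in Ifit1 and Gbp3 2 times on the other strand, and in B2m 1 time. The repeat was found in 13 of the 28 promoters of the list that RefSeq's promoter table holds (46.4%), against 3.04% of all 27025 genes of that table. Among genes with a window there, it was found in 2.66% of those tested, in 5.27% of the 1348 called lower and in 2.40% of the 1625 called higher. Of the genes called lower in the list that have a window, 11 held it and 13 did not. Of the list's genes not called, 2 held it and 1 did not. These are too few to show whether the repeat went with a fall. Their log2 fold changes were negative as well, from -1.53 to -0.298. No promoter in the table of the lipolysis, adipokine or droplet lists held the repeat.

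The extracellular matrix shifted in makeup. Of 29 tested matrix glycoprotein genes 15 fell and 1 rose (median -0.81), and the falls numbered 4 without DMI library 1 or 2 and 8 without untreated library 3. Fn1, the fibronectin gene, stood at 14500, 13730 and 14310 CPM untreated and at 2798, 2247 and 6542 CPM with DMI (log2 fold change -1.88, SE 0.41, adjusted p = 0.00608). Mfap4, a microfibril protein, fell 4.40-fold and Tnc, the tenascin-C gene, 3.46-fold. Sparcl1, a counter-adhesive matrix protein, was the 1 member that rose (32.8, 30.7 and 20.1 CPM against 201, 226 and 92.5 CPM). The matrix protease gene Mmp2 fell 2.22-fold, and among protease inhibitors Timp3 fell 3.80-fold while Timp4, a form found in fat, rose 79.8-fold from at most 0.181 CPM. Mfap4 lost its call without DMI library 1 or 2 (adjusted p = 0.0726 and 0.069 by edgeR), and Tnc without any 1 library other than DMI library 3 (0.0594 to 0.125) and in a fit of only the 6 libraries (0.0686).

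Of 28 tested collagen genes 7 fell and 4 rose (median -0.09). Over all genes tested 12.4% were called lower and 14.7% higher, so the collagen rises were near the general share. The fibrillar chains Col1a1, Col1a2 and Col3a1 fell 2.04-fold, 1.74-fold and 1.42-fold, and Col14a1, which coats fibrils, 12.6-fold. Col15a1 and Col4a1, of the basement membrane that surrounds each adipocyte, rose 6.45-fold and 1.55-fold, and Col6a3 rose 1.54-fold. Col4a5, another basement membrane chain, fell from 619, 590 and 596 to 232, 229 and 325 CPM (2.30-fold, adjusted p = 0.00079). Of 18 tested basement membrane genes 5 rose and 6 fell (median -0.04), with 3 rises without DMI library 2 or untreated library 2 and 3 falls without DMI library 1 or 2. Among the collagen genes, falls numbered 3 without DMI library 1 or 2, 4 without any 1 untreated library and 12 without DMI library 3. Collagen rises numbered 2 without DMI library 1 or untreated library 1 or 3, and 1 without DMI library 2 or untreated library 2. Laminin chains also moved apart, with Lama5 and Lama2 down 3.78-fold and 2.73-fold and Lamb3, at a low level, up 18.2-fold. Col3a1 and Col6a3 lost their calls without any 1 library other than DMI library 3 (adjusted p from 0.058 to 0.099 by edgeR over both), Col1a2 and Lama2 without DMI library 1 or 2 (0.0503 to 0.0549), and Col4a1 without DMI library 2 (0.054) or untreated library 2 (0.0506). Col3a1 also lost its call without a low-count filter (0.127) and in a fit of only the 6 libraries (0.0604, and 0.11 with a replicate block), and Col1a2 in the last of these (0.0509).

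Of 19 tested integrin genes 8 fell and 3 rose, the rises being near the share of 14.7% over all genes tested. The falls numbered 3 without DMI library 1, DMI library 2 or untreated library 3, 4 without untreated library 1 and 5 without untreated library 2. The fibronectin and vitronectin receptor chain Itgav fell from 343, 317 and 360 to 112, 94.8 and 236 CPM, and Itga8 and Itga11 fell 4.07-fold and 3.40-fold. The integrin chains Itga6 and Itga7 rose, Itga6 from 14.2, 13.4 and 18.5 to 474, 499 and 138 CPM (24.1-fold, adjusted p = 0.000201) and Itga7 by 4.85-fold. Itgav lost its call without any 1 library other than DMI library 3 (adjusted p from 0.0676 to 0.145 by edgeR). Of 33 cadherins, semaphorins and plexins 16 fell and 7 rose (median -0.66). The semaphorin gene Sema3g rose 226-fold and the plexin gene Plxnc1 fell 11.7-fold. The falls numbered 5 without DMI library 1 or 2, 8 without untreated library 2 or 3 and 10 without untreated library 1. Caveolae, the membrane pits that cover adipocytes, had 5 of 9 tested genes called higher and none lower, with Cav1 at 97.2, 92.3 and 110 CPM untreated and at 1859, 1839 and 583 CPM with DMI.

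Of 26 tested actin and contractile genes 15 fell and none rose (median -0.74), with 1 rise without untreated library 1; among those that fell were Actn1 (2.10-fold) and the myosin light chain gene Myl9 (2.24-fold). Actn1 lost its call without DMI library 1 or 2 or untreated library 3 (adjusted p from 0.0513 to 0.0679 by edgeR), and Myl9 without DMI library 1 (0.0503). The falls numbered 2 without DMI library 1 or 2, 8 and 9 without untreated library 1 or 2 and 4 without untreated library 3. Of 20 tested progenitor markers 7 fell and 1 rose, with 4 falls without DMI library 1, DMI library 2 or untreated library 3, 11 without DMI library 3, and no rise without DMI library 1 or untreated library 2. Thy1 and the stem cell antigen gene Ly6a fell 2.80-fold and 2.54-fold and Pdgfrb fell 2.32-fold, whereas Pdgfra, the receptor that marks fat progenitors, stood at 589, 604 and 577 CPM untreated and at 628, 590 and 689 CPM with DMI (0.11, SE 0.12, adjusted p = 0.538).

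**Figure D5:**
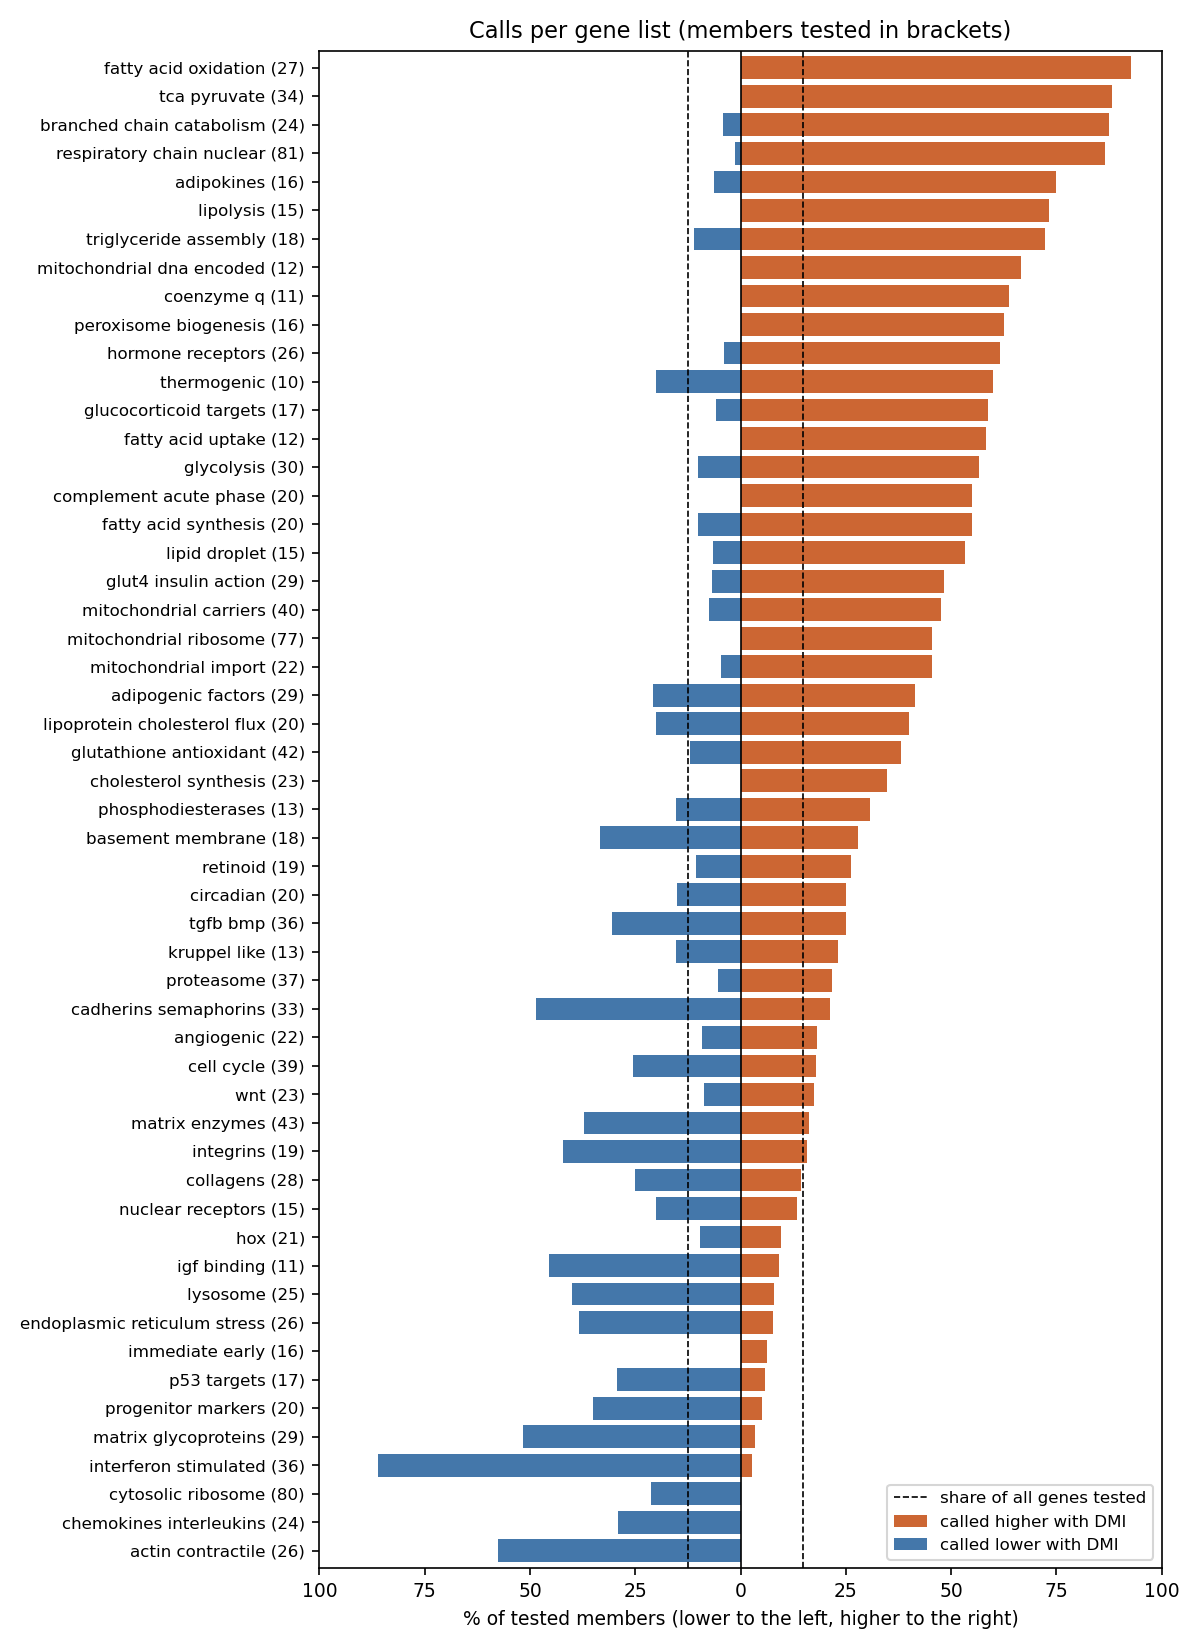
Percentage of tested members of each gene list called higher (orange, to the right) or lower (blue, to the left) with DMI, for lists with at least 10 tested members, whose number stands in brackets; dashed lines mark 14.7% and 12.4%, the shares over all genes. Fatty acid oxidation stands at the top with 25 of 27 higher, and interferon-stimulated genes reach farthest to the left with 31 of 36 lower.

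The leukocyte genes Ptprc and Adgre1, the epithelial gene Epcam and the myogenic gene Myod1 had no count in the 6 libraries. Of the macrophage list 4 genes passed the low-count filter. Sums here and below are over all members of a list, passed or not. The macrophage list summed to 10.3 to 11.4 CPM untreated and 8.62 to 10.4 CPM with DMI. Of the endothelial list 3 passed (3.63 to 4.85 CPM summed untreated, 1.38 to 1.97 CPM with DMI), and of the epithelial list none passed (0.311 to 0.544 CPM summed untreated, 0.944 to 2.12 CPM with DMI). Of the muscle list 3 passed (4.11 to 6.22 CPM summed untreated, 10.7 to 29.6 CPM with DMI), and Des, the desmin gene, rose 10.8-fold to 25.6, 25.9 and 8.43 CPM. Of the bone and cartilage list 5 of 11 genes were tested, and the summed level of the list was 161 to 169 CPM untreated and 82.6 to 128 CPM with DMI. The skeletal factor genes Runx2 and Sox9 and the bone matrix gene Dmp1 fell and Alpl, an alkaline phosphatase gene, rose. Sox9 lost its call without DMI library 1 or 2 or untreated library 3 (adjusted p from 0.0565 to 0.0666 by edgeR) and Alpl without DMI library 2 (0.0533). The part of these markers in the results was not tested.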

How the data were processed

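RNA-seq of 3T3-L1 cells was analysed from the table of raw counts that the authors deposited. Per the submitters' processing notes, featureCounts 1.5.0-p3 and CASAVA 1.8.2 were used; the aligner was not given in the sources used here. FPKM values are in the table as well, as are the authors' own comparisons (a normalised signal per group, log2 fold changes and p-values), all deposited with it; no value given here comes from these columns. The processing notes name mm9, but 53585 of the table's 54532 genes have the same start and end in GENCODE M21, and coordinates are therefore those of GRCm38. The strand setting of the counting is not stated, and reads of a gene and of one that overlaps it on the other strand may be mixed. Symbols that a spreadsheet had changed to dates (27) were restored by identifier.

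The test was edgeR 4.0.16 (R 4.3.3), with filterByExpr leaving 14855 genes, TMM scaling and a quasi-likelihood fit of 1 term per group to 12 libraries, Benjamini-Hochberg adjusted; it was tested on simulated data. CPM use the TMM-adjusted total, TPM the deposited gene length. A fold given for a single gene against a group without counts uses a floor of 3 counts over the group. Size classes use the fold change of the fit. Intervals cover counting error only. Whether the libraries of a group are separate cultures is not stated, and the spread behind the p-values may be technical. Every replicate pair differed by more than sampling noise (chi-square per gene 2.75 or more).

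The members, gene lists and naming rule were chosen with earlier results of these data known. Promoters are RefSeq's (GRCm38.p6), searched over the 250 bases before the start. Lists are described by counts and medians, without a test. The rule names the 4 markers, the 10 largest gains and losses in TPM, in each list up to 4 genes that moved with its majority, up to 2 that moved against it and up to 2 abundant ones not called, and 5 noncoding genes each way. Agpat2, Agt, Car6, Col3a1, Col4a1, Col6a3, Dgat1, Gbp3, Gm44144, Gpat3, Hcar1, Ifit1, Insr, Irf7, Isg15, Itga7, Klb, Lipe, Lpin1, Mc2r, Meox1, Mgll, Pnpla2, Pparg, Ppargc1b, Rarres2, Schip1 and Stat2 were named after their values were seen. A result on 1 gene is not reported here. Alternatives were RLE scaling, library totals, other low-count filters, protein-coding genes only, only the 6 libraries, DESeq2 1.42.0, limma-voom (limma 3.58.1), a replicate block, a 2-fold minimum and leaving out each library.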

Additional observations from a re-analysis of the deposited data

How the results depend on the processing

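Of the 4024 genes called, 2187 higher and 1837 lower, each alternative scaling, low-count filter, tool or gene set gave between 3789 and 4529 calls, with every count within 1.5 times the main one. Deviations of same-numbered untreated and DMI libraries from their group means had correlations of 0.0122, -0.0156 and 0.0128. This check leaves out the luteolin and quercetin groups, so it cannot show whether replicate numbers mark a batch among the induced libraries. With the replicate block 4662 genes were called (2390 higher, 2272 lower). A 2-fold minimum left 1926 calls, 1314 higher and 612 lower, by its own construction; of the lists, it left 2 falls of adipogenic factors, 1 of Krüppel-like factors, of fatty acid synthesis and of bone and cartilage, 0 of triglyceride assembly and of droplet genes, 3 of collagens (2 rises), 3 of integrins, 7 of cadherins, semaphorins and plexins, 4 of contractile genes, and 10 rises of the mitochondrial ribosome. Leaving out 1 library gave between 1865 and 5549 calls, between 1268 and 2902 higher and between 594 and 2647 lower; DMI library 3 gave the highest count and DMI library 2 the lowest total. Without library 3 of the DMI, luteolin and quercetin groups, an alternative that was chosen after seeing the data, there were 7970 calls, 4160 higher and 3810 lower; the cause was not tested. The higher share of calls went from 54.3% to 69.3% without DMI library 1, 68.0% without DMI library 2 and 69.5% without untreated library 3. Of 124 called genes named in the text, none changed sign in 17 alternatives and 101 kept their call in all of them. Without DMI library 1, 1331 of the genes called higher and 586 of those called lower kept their call, so the falls rest more on single libraries than the rises.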
